A study of Mus musculus with 4 samples.

Results

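Lymphoid stromal organizer genes are the genes with which the stroma of lymph nodes recruits lymphocytes, keeps them alive and holds them in place. 10 such genes out of the 33696 in the deposited count tables are described here, namely the chemokines Cxcl13, Ccl19, Ccl21a and Cxcl12, the survival cytokines Il7 and Tnfsf13b, the adhesion molecules Vcam1, Icam1 and Madcam1, and the surface glycoprotein Pdpn. The rule that lists them uses no measured value, although it was drawn up with earlier results of these data known. Each gene was read in cancer-associated fibroblasts (CAF) kept by a fixed rule. A kept cell had 500 to 6000 genes, at most 10% mitochondrial unique molecular identifiers (UMIs, which count captured RNA molecules), no UMI of Ptprc or Pax3, and at least 3 UMIs of Col1a1, Col1a2 and Col3a1 together. The rule kept 21098 of 24489 cell barcodes.

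In lymph nodes, reticular cells of the T zone make CCL19 and CCL21, which draw in cells that carry the receptor CCR7. Follicular stroma makes CXCL13, the ligand of CXCR5, and so gathers B cells into follicles. IL-7 sustains T cells, BAFF (the product of Tnfsf13b) sustains B cells, and VCAM1, ICAM1 and MADCAM1 are ligands of integrins on lymphocytes. Fibroblasts that make such products are found in tertiary lymphoid structures, which are lymph node-like aggregates in inflamed tissue and in tumors.

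All cells came from B16-F1-OVA melanoma tumors, 14 days after the tumor cells were placed in the peritoneal cavity. Every host carried Cxcl13-cre-tdTomato and R26R-eGFPflox on a C57Bl/6 background, as the labels give it. In these mice the Cxcl13 promoter drives tdTomato and the cre recombinase, and eGFP is expressed lastingly once cre has removed a stop signal. Thus tdTomato reports present promoter activity and eGFP, where cre has acted, present or past activity. Not every tdTomato+ cell has eGFP, and the paper proposes that recombination is less efficient where cre expression is lower. Cells enriched on beads for podoplanin and gated as CD45neg, CD31neg and podoplanin-high were sorted into 4 groups by the reporters, and each group gave 1 single-cell 3′ library. The tdTomato-neg eGFP-neg library (double-negative hereafter) held 9866 kept cells. The tdTomato-neg eGFP+ library (eGFP-only) held 5745, the tdTomato+ eGFP+ library (double-positive) held 853, and the tdTomato+ eGFP-neg library (tdTomato-only) held 4634. Podoplanin protein was a criterion of the sort and Cxcl13 promoter activity set the groups, so the levels of Pdpn and Cxcl13 are partly fixed by the design. All groups, the double-negative one included, carried the tumor and the transgenes. The number of mice behind each library is not given in the sources used here, and cells with Xist and cells with Y-linked UMIs were found in all 4 libraries. With 1 library in a group there is no test across samples, and all intervals below are 95% intervals for counting error only, which do not cover the spread between animals.

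The libraries held 10071954 to 90259852 UMIs. A kept double-negative cell had a median of 5776 UMIs, against 8397 to 9117.5 in the other 3 libraries. In the kept cells Dcn, a matrix proteoglycan of fibroblasts, was found in 96.9% to 98.4% of cells. Other matrix markers were less common, such as Pdgfra in 53.3% to 81.0% and Lum in 12.3% to 44.3%. Counted together, the mesothelial markers (listed below) were found in 64.7% to 87.0% of the same cells, and the matrix markers in 98.6% to 99.3%. Among the mesothelial markers, Wt1 alone was found in 43.2% to 67.8% of cells, but Msln in 4.40% to 32.1%. Levels are given as CPM, the UMIs of a gene per 1000000 UMIs summed over kept cells. Of the listed markers of follicular dendritic and reticular cells, Cr2 and Fcer2a were at or below 0.152 CPM in each library. Bst1 was at 2.46 to 5.50 CPM, while Clu, at 95.5 to 140 CPM, and Mfge8, at 49.4 to 66.2 CPM, were common. Summed melanoma markers were at 289 CPM in the double-negative library and at 6.14 to 29.9 CPM in the other 3. Summed immune markers ranged from 15.4 to 55.8 CPM. The part of these in the comparisons below was not tested. Probable doublets were not removed, and 57 barcodes were shared between libraries, summed over the 6 pairs of libraries.

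2 sets of sequences bear on how the reads can be assigned and on the reporter. The first is a stretch of the Ccl21a transcript, bases 239 to 299 counted from 1 at its 5′ end, from the GENCODE M21 transcripts. It is shown because Ccl21a has near-identical copies in the mouse genome, and the capital marks the base that differs.
Ccl21a-201: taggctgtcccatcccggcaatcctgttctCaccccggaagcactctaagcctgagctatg
Gm21541-201: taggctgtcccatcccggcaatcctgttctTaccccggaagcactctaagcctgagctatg
Ccl21b-201: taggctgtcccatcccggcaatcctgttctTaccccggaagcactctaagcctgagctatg
Gm10591-201: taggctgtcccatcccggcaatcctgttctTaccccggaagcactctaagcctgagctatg
The substitution is C269T in each of these copies, and T159A is the other substitution that they share. Compared without gaps, the copies matched Ccl21a at 99.3% to 99.5% of the bases compared. Of 781 windows of 90 bases in Ccl21a-201, 54.8% also occurred in one or more of Ccl21b, Gm10591, Gm13304 and Gm21541. A similar limit held for Ccl19, of whose 684 windows in Ccl19-203 45.0% also occurred in Ccl19-ps1, Ccl19-ps3, Gm12407 or Gm2564. For the other 8 genes no window occurred in another gene.

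The second set is the sequence before the start of Cxcl13, whose promoter drives the reporter, and of Ccl19 and Tnfsf13b, which were found in the same cells more often than depth alone gives (below). RefSeq promoter windows of 250 bases before and 50 after the start matched 8 of the 10 genes on GRCm38.p6, and Il7 and Vcam1 had none. These windows lie at chr5:95956689-95956988 on the plus strand for Cxcl13, at chr4:42756316-42756615 on the minus strand for Ccl19 and at chr8:10006383-10006682 on the plus strand for Tnfsf13b, which has a further start. The 250 bases before each start are printed 5′ to 3′, with capitals on TATAAA in Cxcl13 and, in the other genes, on the interferon-response pattern of GAAA, any 2 bases and GAAA again.
Cxcl13: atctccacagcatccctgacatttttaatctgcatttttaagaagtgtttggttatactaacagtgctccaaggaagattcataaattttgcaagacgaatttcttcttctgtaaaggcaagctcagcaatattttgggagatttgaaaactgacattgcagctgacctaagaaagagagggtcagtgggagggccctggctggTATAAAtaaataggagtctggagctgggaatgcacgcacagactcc
Ccl19: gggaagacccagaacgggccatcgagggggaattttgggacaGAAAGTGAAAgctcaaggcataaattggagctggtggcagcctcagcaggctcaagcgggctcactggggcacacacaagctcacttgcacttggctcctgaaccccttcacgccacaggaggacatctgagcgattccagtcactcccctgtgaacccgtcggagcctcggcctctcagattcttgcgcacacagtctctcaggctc
Tnfsf13b: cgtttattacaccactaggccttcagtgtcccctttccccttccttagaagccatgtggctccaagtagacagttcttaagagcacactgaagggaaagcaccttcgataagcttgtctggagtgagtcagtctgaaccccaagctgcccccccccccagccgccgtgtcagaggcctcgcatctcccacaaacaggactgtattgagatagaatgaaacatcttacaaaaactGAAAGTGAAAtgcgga
TATAAA was searched on both strands and occurred in 13.6% of 32851 RefSeq windows, among them Cxcl13, where it began 46 bases before the start, and Icam1. The interferon-response pattern, searched likewise, occurred in 3.44% of windows, among them Ccl19, 208 bases before the start, and 1 of the 2 Tnfsf13b windows, 16 bases before it. The NF-kB consensus occurred in 8.46% of windows and, among these genes, in Madcam1, with 2 matches. These are letter matches, no binding was measured, and a link to co-detection was not tested. Cxcl12 was also found with Ccl19 and with Tnfsf13b more often than depth alone gives in the tdTomato-neg libraries (below). Its window, not printed here, held none of these patterns.

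Cxcl13, the B cell attractant, differed widely between libraries and between cells. Its level was 222 CPM (218 to 225) in double-negative, 199 CPM (195 to 202) in eGFP-only, 1123 CPM (1100 to 1145) in double-positive and 2203 CPM (2189 to 2216) in tdTomato-only CAF. Both tdTomato+ libraries were thus far above both tdTomato-neg libraries, as the sort on the reporter fixes, and the tdTomato-only library was the highest. By flow cytometry the paper found tdTomato higher in double-positive than in tdTomato-only CAF, the reverse of this order of RNA. The cause of this difference was not tested. Against the double-negative library the level was 9.94-fold higher in tdTomato-only and 5.07-fold higher in double-positive CAF. In eGFP-only CAF, whose eGFP records promoter activity at some time, the log2 ratio was -0.16 (-0.19 to -0.12). This direction was not stable, since in the low range of mesothelial markers (defined below) eGFP-only CAF had 355 CPM and double-negative CAF 303 CPM, and in Y-only cells the log2 ratio was 0.44.

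Cxcl13 RNA was found in 14.4%, 18.7%, 44.4% and 69.3% of the double-negative, eGFP-only, double-positive and tdTomato-only cells. After each cell was thinned to 1000 UMIs, which removes the difference in depth, the shares were 6.98%, 7.91%, 24.2% and 43.4%, in the same order. Of the 130 immune cells (Ptprc UMIs and too few collagen UMIs) in the same libraries, 13.1% (7.81 to 20.1) had a Cxcl13 UMI, at median depths of 2592 to 3096 UMIs, and of 92 melanoma cells 5.43% did. Within the double-negative library 3 of 43 immune cells (38 UMIs together) and 1 of 41 melanoma cells had one, at thinned shares of 5.10% and 0.143%, and within the eGFP-only library 0 of 26 and 0 of 31 did. These cells are too few to set a level of free RNA against the fibroblast shares of the tdTomato-neg libraries. Moreover, the immune cells were chosen for few collagen UMIs, and among all cells with Ptprc UMIs, whatever their collagen, Cxcl13 was found in 13.9%, 14.3%, 55.2% and 53.4% in the 4 libraries.

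A small set of cells nevertheless carried most of the transcript in the tdTomato-neg libraries. The highest 5% of cells held 90.1% of all Cxcl13 UMIs in the double-negative and 84.5% in the eGFP-only library, against 66.6% in the double-positive and 45.3% in the tdTomato-only library. In the double-negative library 370 cells (3.75%) had 10 or more UMIs, and the highest cell had 671. Cells with 10 or more UMIs made up 4.40% of eGFP-only, 16.8% of double-positive and 34.7% of tdTomato-only CAF. Cells rich in Cxcl13 RNA were therefore present in both libraries sorted as tdTomato-neg, while the other cells of the tdTomato+ libraries had fewer or none.

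**Figure D1:**
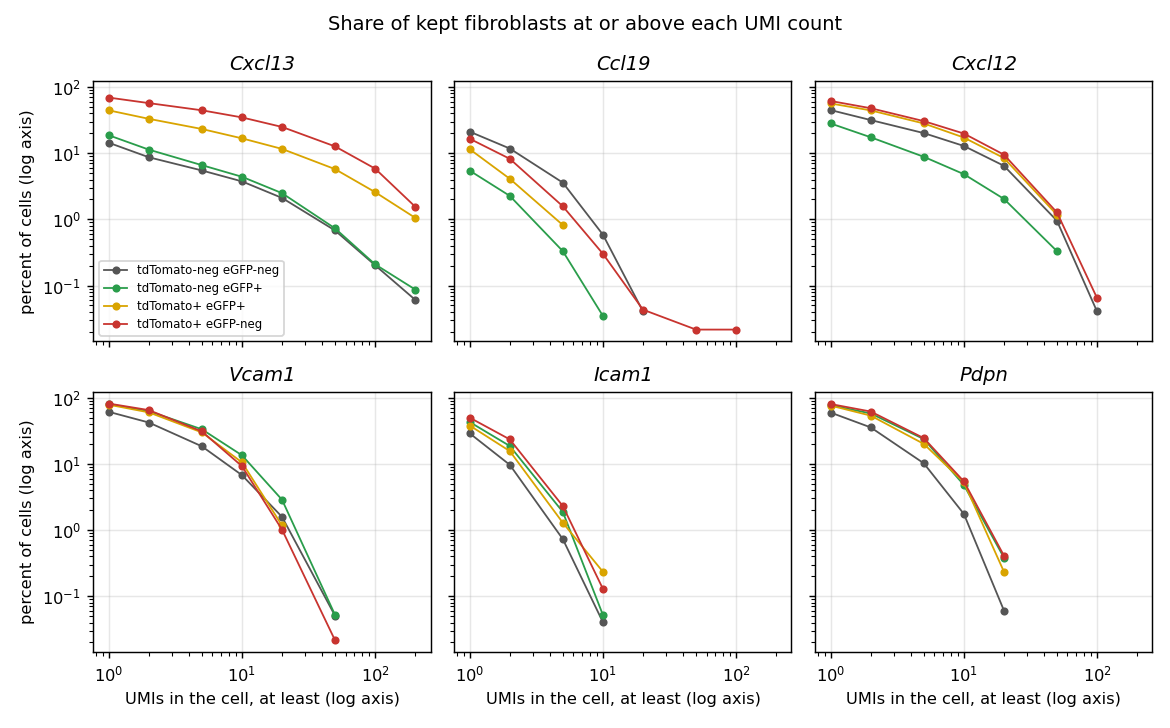
Percent of kept fibroblasts (vertical, log axis) with at least a given number of UMIs (horizontal, log axis), with a line for each library. The Cxcl13 lines of the tdTomato+ libraries reach 100 UMIs in 2.58% and 5.85% of cells, against 0.203% and 0.209% in the tdTomato-neg libraries.

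Ccl19 ran in another order. Its level was 74.5 CPM (72.6 to 76.5) in double-negative, 10.8 CPM (9.94 to 11.7) in eGFP-only, 19.9 CPM (17.1 to 23.1) in double-positive and 40.1 CPM (38.3 to 42.0) in tdTomato-only CAF. It was thus highest in the cells with neither reporter and lowest in the cells with eGFP alone, and the 4 intervals do not overlap. The share of cells with the gene was 21.1%, 5.45%, 11.5% and 16.5%, while 0 of 130 immune cells with few collagen UMIs had a UMI, which allows a share of up to 2.31%. Without the collagen limit 10 of 122, 5 of 84, 1 of 29 and 19 of 193 immune cells had one, or between 3.45% and 9.84%, and the eGFP-only share in fibroblasts is not above that. Against the double-negative library the log2 ratio was -2.79 (-2.91 to -2.67) in eGFP-only, -1.90 (-2.13 to -1.68) in double-positive and -0.89 (-0.97 to -0.82) in tdTomato-only CAF.

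The tables also count a copy of Ccl19, named Ccl19-ps2, on its own, and reads that fit both could be split between them. Ccl19-ps2 had 3711, 453, 170 and 1543 UMIs in the 4 libraries, or 0.658, 0.754, 0.988 and 0.836 for each Ccl19 UMI. Cells with both were 3.02 to 7.93 times as frequent as independence at equal depth gives. With both features added together the level over all kept cells was 124, 18.9, 39.6 and 73.7 CPM, which leaves the order of the libraries there as it was.

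Ccl21a, the other CCR7 ligand, was almost absent from the counts of these fibroblasts. Of the last 300 windows of 90 bases in its transcript, 50.3% also occur in its copies. Reads from these windows cannot be told apart from those of the copies, and how many went uncounted was not tested. The 4 libraries held 225, 0, 0 and 1 UMIs, the 225 being 2.97 CPM, and the counts of 0 allow up to 0.0538 CPM in eGFP-only and 0.348 CPM in double-positive CAF. The double-negative UMIs lay in 11 of 9866 cells, and 6 of these, with 10 to 80 UMIs each, held 220 of the 225. All 6 also had UMIs of Lyve1, a lymphatic endothelial marker found in 0.162% of double-negative fibroblasts, and all 6 had Pdpn, which lymphatic endothelium makes too. These 6 cells had 2 to 25 UMIs over the lymphatic list of Lyve1, Prox1, Flt4 and Reln. They had 0 to 3 UMIs of Pecam1, which encodes the CD31 that the sort gated against, and what cells they are was not tested. The other 5 cells had 1 Ccl21a UMI each and no Lyve1. When all cells with Lyve1 were left out, 5 Ccl21a UMIs remained in the double-negative library (0.0663 CPM). Features named for the copies of Ccl21a held no UMI in any library. The paper, too, detected Ccl21 in few cells and at a low level. Its authors believe the cause to be technical, because their earlier work found Ccl21 robustly by immunofluorescence and RT-PCR. The low counts here therefore do not show that these CAF lack CCL21.

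Cxcl12, the ligand of CXCR4, was lower in eGFP-only CAF than in the other 3 libraries. Its level was 531 CPM (526 to 537) in double-negative, 175 CPM (171 to 178) in eGFP-only, 531 CPM (516 to 546) in double-positive and 610 CPM (603 to 617) in tdTomato-only CAF. The eGFP-only library had a log2 ratio of -1.61 (-1.64 to -1.57) against the double-negative one, whereas the double-positive and double-negative levels did not differ beyond counting error (-0.00, -0.05 to 0.04). It was found in 44.8%, 28.1%, 56.4% and 61.5% of cells, against 3.08% of immune cells with few collagen UMIs. Without that limit 23.0%, 19.0%, 31.0% and 40.9% of immune cells had it.

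**Figure D2:**
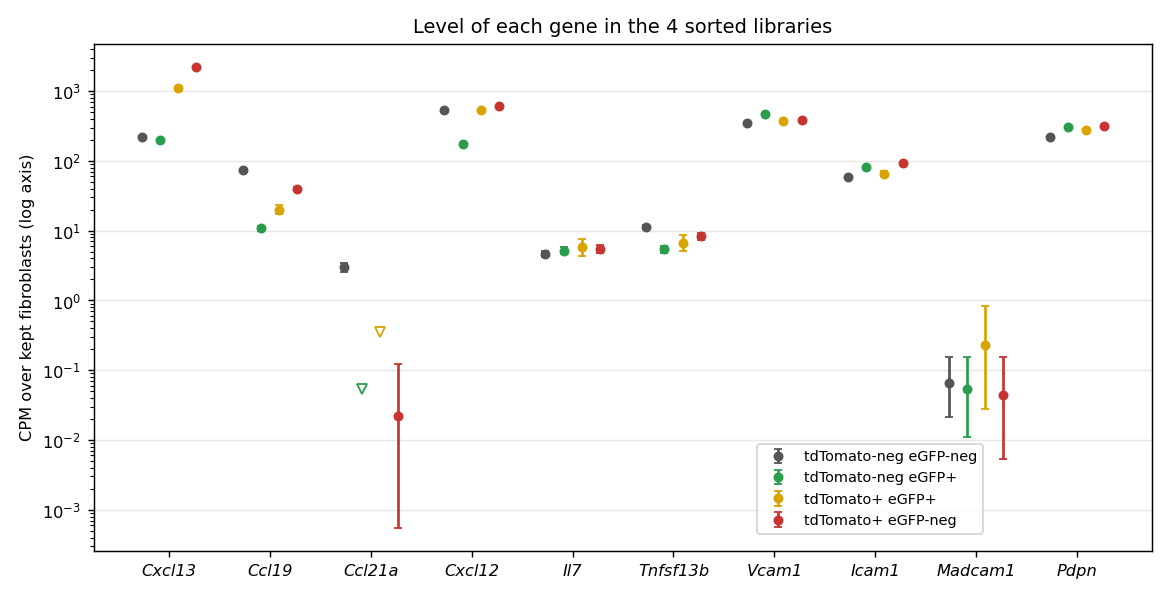
CPM over kept fibroblasts (vertical, log axis) for each of the 10 genes in the 4 libraries, with 95% Poisson intervals as bars. Open triangles mark what a count of 0 allows. Cxcl13 spans 199 to 2203 CPM and Ccl19 10.8 to 74.5 CPM, while Il7 stays between 4.67 and 5.79 CPM.

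Il7, over all kept cells, was low and did not differ between libraries beyond counting error. It was at 4.67 CPM (4.19 to 5.18), 5.17 CPM (4.59 to 5.80), 5.79 CPM (4.30 to 7.64) and 5.50 CPM (4.85 to 6.22) in double-negative, eGFP-only, double-positive and tdTomato-only CAF, with overlapping intervals. The log2 ratios against the double-negative library were 0.15, 0.31 and 0.24, and each of their intervals included 0, the widest reaching 0.74. Il7 was found in 3.32% to 5.39% of fibroblasts and in 0.769% (0.0195 to 4.21) of immune cells, so the 2 kinds of cell were not separable in double-negative CAF at this depth. Without the limit on collagen 2.46%, 5.95%, 3.45% and 3.63% of immune cells had Il7.

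Tnfsf13b was highest where Ccl19 was highest. Its level was 11.4 CPM (10.7 to 12.2) in double-negative, 5.40 CPM (4.81 to 6.05) in eGFP-only, 6.72 CPM (5.10 to 8.69) in double-positive and 8.29 CPM (7.48 to 9.16) in tdTomato-only CAF. Over all kept cells the double-negative level lay above the others, while the double-positive interval overlapped its neighbours on both sides. In Y-only cells (below) tdTomato-only CAF had 9.18 CPM and double-negative CAF 7.41 CPM, a log2 ratio of 0.31 (-0.06 to 0.68). The ratios there were -0.26 (-1.13 to 0.51) in double-positive and -0.63 in eGFP-only CAF. It was found in 4.80% to 7.87% of fibroblasts, beside 2.31% (0.478 to 6.60) of immune cells, which also make this cytokine, and that interval takes in the shares of the eGFP-only and double-positive libraries. Without the limit on collagen 7.38%, 5.95%, 6.90% and 7.77% of immune cells had Tnfsf13b. The log2 ratio of Tnfsf13b in eGFP-only CAF was -1.08 (-1.28 to -0.89).

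Vcam1 and Icam1 were common in all 4 libraries and differed little. Vcam1, the ligand of integrin VLA-4, was at 355 CPM (350 to 359), 464 CPM (458 to 470), 373 CPM (360 to 386) and 387 CPM (381 to 392) in the order used above, and was found in 61.2%, 79.8%, 78.4% and 81.6% of cells. Thinned to equal depth these shares were 23.0%, 31.9%, 27.7% and 28.7%, with the double-negative library still the lowest. Immune cells had Vcam1 in 14.6% where they had few collagen UMIs, and in 54.9%, 57.1%, 58.6% and 58.0% without that limit.

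Icam1, the ligand of LFA-1, was at 59.0 CPM (57.3 to 60.8), 80.6 CPM (78.2 to 83.0), 65.5 CPM (60.2 to 71.1) and 94.7 CPM (91.9 to 97.6) in the same order, with the highest level in tdTomato-only CAF. Its log2 ratio there was 0.68 (0.62 to 0.74), under the 2-fold limit. Icam1 was found in 28.9%, 42.9%, 38.0% and 49.9% of fibroblasts. Immune cells, which also express it, had it in 13.1% where they had few collagen UMIs. Without that limit they had it in 41.8%, 36.9%, 55.2% and 42.5% in the 4 libraries. Madcam1, the addressin of mucosal vessels, was close to absent, with 5, 3, 2 and 2 UMIs in the 4 libraries.

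Pdpn, the sorted marker and the ligand of the platelet receptor CLEC-2, was at 218 CPM (214 to 221), 308 CPM (304 to 313), 277 CPM (266 to 289) and 319 CPM (314 to 325). The double-negative library was the lowest, with log2 ratios of 0.50, 0.35 and 0.55 for the other libraries against it. Its RNA was found in 59.6% to 80.3% of fibroblasts, although all had been gated on the protein, and in 13.8% of immune and 16.3% of melanoma cells. Without the limit on collagen 56.6%, 57.1%, 58.6% and 58.5% of immune cells had it.

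The 3 comparisons share the double-negative library and so are not independent. A gene was read, with no p, when it had at least 20 UMIs over both libraries, which left out Madcam1, and was called where the level differed 2-fold or more. In eGFP-only CAF 0 of 9 genes were higher and 4 were lower (Ccl19, Ccl21a, Cxcl12 and Tnfsf13b), where 2.27% of all 17428 genes were higher and 7.58% lower. In double-positive CAF 1 was higher (Cxcl13) and 2 lower (Ccl19 and Ccl21a), beside 3.74% and 11.8% of 16434 genes. In tdTomato-only CAF 1 was higher (Cxcl13) and 1 lower (Ccl21a), beside 4.24% and 7.26% of 17319 genes. Without the cells that have Lyve1, Ccl21a had too few UMIs to be read in any of the 3, which left 3, 1 and 0 genes lower. The median log2 ratio of the 9 genes was -0.16, 0.07 and 0.20, beside 0.07, -0.06 and 0.06 over all genes.

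The reporter libraries also differed in the sex marks of the cells. Neither mark was found in 5189 of 9866 double-negative, 2593 of 5745 eGFP-only, 298 of 853 double-positive and 1529 of 4634 tdTomato-only cells. Those cells are left out here, and the double-negative cells had the lowest median depth. Of cells with Xist or Y-linked UMIs but not both, those with Xist made up 56.2%, 43.7%, 64.7% and 66.0% in the 4 libraries. In the double-negative library Cxcl12 was at 714 CPM in Xist-only and 308 CPM in Y-only cells, and in the tdTomato-only library it was at 564 and 730 CPM. The log2 ratio of tdTomato-only over double-negative CAF was therefore -0.34 in Xist-only and 1.246 in Y-only cells, on opposite sides of 0. For Cxcl13 both were above 0, at 2.74 and 4.21, and for Ccl19 both were below 0, at -1.30 and -0.20. Its copy Ccl19-ps2 was at -0.94 in Xist-only but at 0.35 (0.14 to 0.57) in Y-only cells. In Y-only cells Ccl19 and its copy thus went in opposite directions, and how reads were split between them was not tested. Calls at 2-fold that did not hold in Y-only cells were those of Ccl19 in double-positive CAF (-0.69, against -2.86 in Xist-only cells) and of Tnfsf13b in eGFP-only CAF (-0.63, against -1.51). The cells of a given mark may come from 1 animal or several, so sex and animal cannot be told apart.

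**Figure D3:**
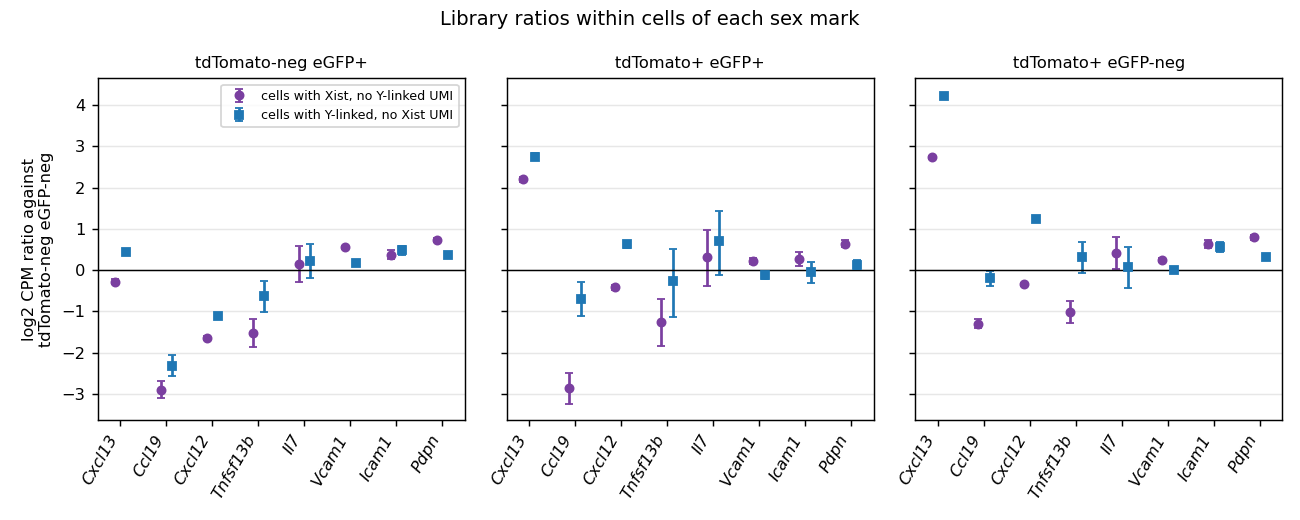
log2 ratio of CPM against the double-negative library (vertical) for each gene (horizontal), in Xist-only and Y-only cells, with 95% intervals. Cxcl12 in tdTomato-only CAF lies at -0.34 in Xist-only and at 1.246 in Y-only cells, while Ccl19, counted without Ccl19-ps2, lies below 0 in both.

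Co-detection asked whether these genes were found in the same cells. For each pair the number of cells with both was divided by the number expected if the genes were independent within 20 bins of depth, and a pair was called above where that number exceeded the expected one by 25% or more and below where it fell short by 20% or more, for pairs with at least 10 cells expected. Of 45 pairs 28, 28, 25 and 28 were read in the double-negative, eGFP-only, double-positive and tdTomato-only libraries. The median ratio over them was 1.04, 1.00, 1.01 and 1.02, beside 1.01 over all pairs of genes in each library. The median over the organizer genes was thus close to that over all genes, though the ratio of a pair of common genes has little room to rise.

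The pairs called above lay among Ccl19, Cxcl12, Tnfsf13b and Cxcl13, and those called below were Ccl19 with Il7 and Ccl19 with Pdpn. In double-negative CAF 5 pairs (17.9%) were above and 1 (3.57%) below, where 5.73% of all pairs were above and 3.81% below. In eGFP-only CAF 4 (14.3%) were above and 1 (3.57%) below, beside 4.88% and 3.5% of all pairs. In double-positive CAF 0 were above and 1 (4.0%) below, beside 4.95% and 4.57%. In tdTomato-only CAF 2 (7.14%) were above and 0 below, beside 4.72% and 3.89%. The shares above were thus over the background in both tdTomato-neg libraries, though the pairs overlap in their genes and are not independent. In tdTomato-only CAF the share above rested on 2 pairs, both with Ccl19, too few to set against the background. The shares below were near or under the background in all 4 libraries. In tdTomato-only CAF 4 pairs were above once the number of cells expected to be doublets was left out by depth. With marker range added to depth, eGFP-only CAF had 2 pairs above.

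Ccl19 and Cxcl12 were found together in 1819 double-negative cells, 1.83 (1.75 to 1.92) times the number expected. The ratio was 2.44 (2.15 to 2.77) in eGFP-only, 1.20 (0.94 to 1.50) in double-positive and 1.35 (1.247 to 1.45) in tdTomato-only CAF. Ccl19 and Tnfsf13b, the chemokine for T cells and the survival factor for B cells, had ratios of 1.85 in double-negative, 2.42 in eGFP-only and 1.79 in tdTomato-only CAF, with too few cells in the double-positive library. Cxcl12 and Tnfsf13b had 1.42, 1.43, 1.23 and 1.24. All 3 pairs of these genes were thus called above in the tdTomato-neg libraries, and both pairs with Ccl19 in tdTomato-only CAF.

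Cxcl13 did not join this group evenly. With Ccl19 it shared 517 double-negative cells, or 5.24% against 3.31% expected, a ratio of 1.58 (1.45 to 1.73). The ratio was 1.19 (0.94 to 1.49) in eGFP-only, 0.94 (0.68 to 1.26) in double-positive and 1.04 (0.95 to 1.12) in tdTomato-only CAF, where 12.2% of cells had both and 11.8% were expected. So in the tdTomato+ libraries, where Cxcl13 was most common, the intervals of this ratio included 1. With Cxcl12 the ratios were 1.27, 1.37, 1.07 and 1.01. In tdTomato-only CAF the shares of the genes allow no ratio above 1.40 for Cxcl13 with Ccl19 or above 1.41 with Cxcl12, so values there have less room to rise.

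Vcam1, Icam1 and Pdpn were so common that co-detection says little about them. Vcam1 with Pdpn had ratios of 1.04, 1.01, 1.00 and 1.01, where their shares allow at most 1.38, 1.18, 1.16 and 1.16, and Vcam1 with Icam1 had 1.04, 1.02, 1.01 and 1.01, of at most 1.34, 1.15, 1.15 and 1.16. The Pearson r over cells, given as a description, was 0.20, 0.10, 0.07 and 0.10 for Vcam1 with Pdpn, beside 0.16, 0.04, -0.02 and 0.08 for Cxcl13 with Ccl19. Cxcl13 with Vcam1 had 1.08, 1.03, 1.02 and 1.02. Ccl19 with Pdpn lay below 1, at 0.80 in the double-negative, eGFP-only and double-positive libraries and 0.87 in tdTomato-only CAF. In the double-negative library Ccl19 with Il7 was at 0.77.

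**Figure D4:**
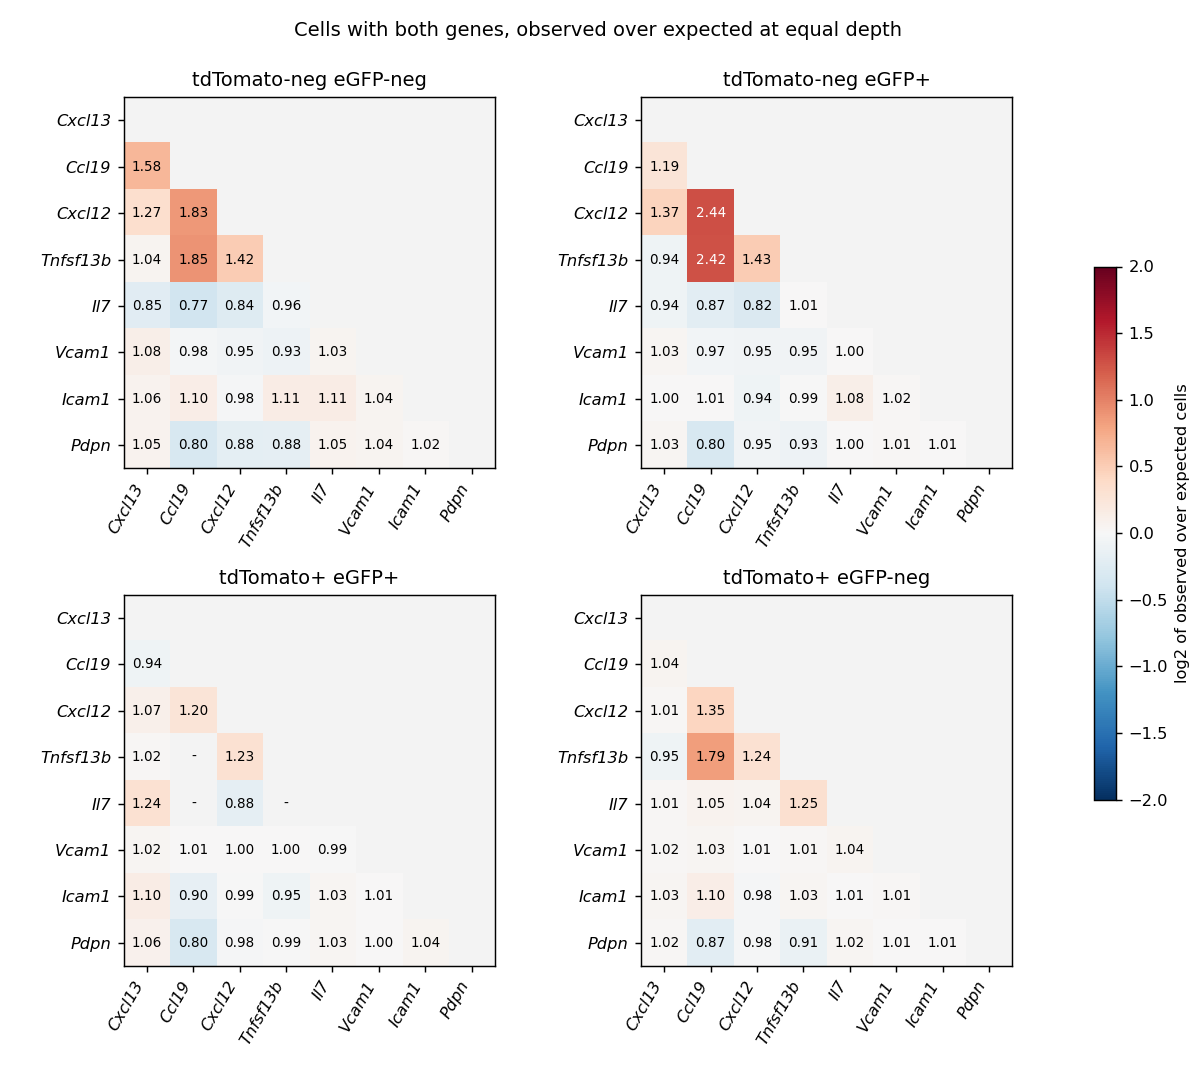
Ratio of cells with both genes to cells expected at equal depth, for each pair of the 8 genes other than Ccl21a and Madcam1 in each library; a dash marks pairs with fewer than 10 cells expected. Ccl19 with Cxcl12 reaches 1.83 and 2.44 in the tdTomato-neg libraries and Vcam1 with Pdpn stays between 1.00 and 1.04.

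No cell had 9 or 10 of the 10 genes. Part of the set, namely Cxcl13, Ccl19, Cxcl12, Vcam1, Icam1 and Pdpn, was found together in 1.11% (0.917 to 1.34) of double-negative, 0.435% (0.282 to 0.642) of eGFP-only, 1.88% (1.08 to 3.03) of double-positive and 4.96% (4.36 to 5.63) of tdTomato-only cells. These shares have no expected share beside them. A cell had a median of 2, 3, 3 and 4 of the 10 genes in these libraries. The lower depth of the double-negative cells goes with their lower numbers, and its part was not tested.

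The sorted cells span a range from matrix fibroblasts to cells with mesothelial markers, and the organizer genes were spread unevenly over it. Each cell was placed by the share of mesothelial UMIs among its mesothelial and matrix marker UMIs. The low range was under 0.2, the middle range up to 0.8 and the high range above. Mesothelial markers were Msln, Upk3b, Upk1b, Lrrn4, Krt19, Krt8, Krt18, Wt1, Muc16 and Gpm6a. Matrix markers were Pdgfra, Pdgfrb, Dcn, Lum, Dpt, Fbln1, Mfap5 and Pi16. The ranges are stretches of a score and not cell types. The low range held 6361, 2573, 663 and 3864 cells, the middle range 3022, 2882, 159 and 681, and the high range 274, 143, 4 and 15. With Dcn in the score only the eGFP-only library had more middle than low cells, but without it the double-positive (365 against 288) and tdTomato-only (2238 against 1677) libraries did too.

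Cxcl12 fell off steeply over the ranges in each library. In double-negative CAF it was at 800 CPM in the low, 99.5 CPM in the middle and 20.4 CPM in the high range. From low to middle it went from 331 to 33.0 CPM in eGFP-only, from 627 to 71.9 CPM in double-positive and from 678 to 167 CPM in tdTomato-only CAF. Ccl19 did likewise, from 113 to 13.2 CPM, from 20.5 to 2.05 CPM, from 23.7 to 1.36 CPM and from 44.4 to 12.3 CPM. Within the low range alone, the level of Ccl19 in eGFP-only CAF was thus still below that in double-negative CAF.

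Tnfsf13b was lower in the middle than in the low range in all 4 libraries, at 5.04 and 15.5 CPM in double-negative CAF. Vcam1 was higher in the middle than in the low range in 3 libraries, at 496 against 271 CPM in double-negative, 521 against 408 CPM in eGFP-only and 439 against 380 CPM in tdTomato-only CAF, while in double-positive CAF the log2 ratio was 0.07 (-0.06 to 0.20). Its high range did not continue this in eGFP-only CAF, at 351 CPM, nor in the 15 such tdTomato-only cells, at 181 CPM, though without Dcn the high range was above the low in all 4 libraries. Il7 in the low range was at 3.49 CPM (2.97 to 4.07) in double-negative, 4.04 CPM (3.31 to 4.88) in eGFP-only, 6.48 CPM (4.74 to 8.64) in double-positive and 5.37 CPM (4.67 to 6.14) in tdTomato-only CAF. There, with Dcn in the score, the tdTomato+ libraries lay above the double-negative one, with intervals apart. Without Dcn the low-range levels of Il7 were 2.96, 3.79, 4.59 and 5.09 CPM in the same order, the double-positive one from 288 cells. Pdpn was at 185 CPM in the low and 270 CPM in the middle range of double-negative CAF, and at 307 and 311 CPM in eGFP-only CAF. With Dcn left out of the score, Pdpn in eGFP-only CAF was at 220 CPM in the low and 342 CPM in the middle range. The log2 ratios of middle over low were then 1.00, 0.64, 0.56 and 0.52 in the 4 libraries. Cxcl13 was at 303 and 93.8 CPM in double-negative and at 2375 and 1088 CPM in tdTomato-only CAF, but this direction turned in the double-negative and double-positive libraries once Dcn was taken out of the score (219 against 304 CPM, and 1173 against 1234 CPM). Without Dcn the log2 ratio of middle over low was -0.30 in eGFP-only and -0.11 in tdTomato-only CAF, and the high range stayed below the low in all 4 libraries, at -1.67, -3.06, -2.62 and -1.13.

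Co-detection ratios were also taken within range and 5 bins of depth, beside 5 bins of depth alone. Ccl19 with Cxcl12 had ratios of 1.85, 2.45, 1.22 and 1.36 with depth alone and of 1.44, 1.70, 1.10 and 1.30 with range added. Cxcl13 with Ccl19 had 1.59, 1.20, 0.956 and 1.05 with depth alone and 1.36, 0.907, 0.907 and 1.03 with range. Ccl19 with Tnfsf13b went from 1.88 to 1.52 in double-negative, from 2.42 to 2.00 in eGFP-only and from 1.81 to 1.74 in tdTomato-only CAF. The ratios were thus lower with range added in each library read, and those of Ccl19 with Tnfsf13b stayed above 1.

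**Figure D5:**
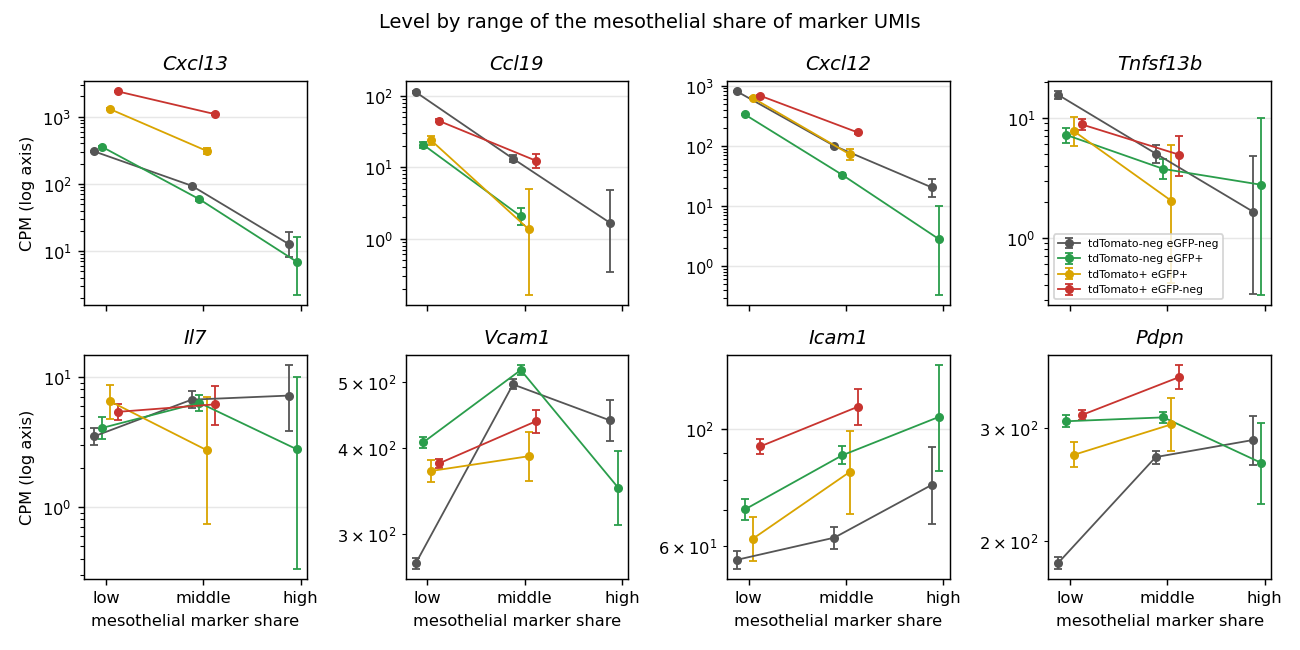
CPM (vertical, log axis) in the low, middle and high range of the mesothelial share of marker UMIs, for the same 8 genes in each library, with 95% Poisson intervals; ranges with under 50 cells or 0 UMIs are not drawn. Cxcl12 and Ccl19 step down from low to middle in all 4 libraries, from 800 to 99.5 CPM and from 113 to 13.2 CPM in double-negative CAF.

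Genes that varied most like each of the 8 members found in at least 1% of cells of every library were ranked by the lowest Pearson r over cells among the 4 libraries. These cells share library and depth, so the values are descriptions. Cxcl13 went with Saa3, an acute-phase serum amyloid, at r 0.25 to 0.35, then with Fth1, the ferritin heavy chain, and Sod2, the mitochondrial superoxide dismutase. Ccl19 went with Ccl11, the eotaxin, at 0.37 to 0.50, with Lum, a matrix proteoglycan, and with Cygb. Cxcl12 went with Plpp3 at 0.39 to 0.44, with Hp, haptoglobin, and with the basement membrane collagen Col4a1.

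Tnfsf13b had only weak likeness, to Mmp2 (0.11 to 0.15), Svep1 and Lum, so Lum stands in the lists of both Tnfsf13b and Ccl19. Vcam1 went with Sdc4, Cxcl10 and Ccl7, and Icam1 with Cxcl10, Tnfaip3 and Gbp2, so the interferon-induced chemokine Cxcl10 stands in both lists. Pdpn went with Sdc4 at 0.17 to 0.27, with Ptgis and with Serpinb2. The genes nearest to Il7 (Ildr2, Dstn and Dnaja1) reached no more than 0.10, which in counts this sparse is no relation to read.

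22 other genes of lymphoid stroma were read beside the members, of which 20 passed the limit of 20 UMIs in each comparison. In eGFP-only CAF 0 were higher and 2 lower, where 2.27% and 7.58% of all genes were. In double-positive CAF 3 were higher and 2 lower, beside 3.74% and 11.8%, and in tdTomato-only CAF 4 were higher and 1 lower, beside 4.24% and 7.26%. The median log2 ratios of the 20 genes were 0.06, 0.19 and 0.50, beside 0.07, -0.06 and 0.06 over all genes. Cxcl9, an interferon-induced chemokine, was lower in eGFP-only CAF, with a log2 ratio of -1.48, and Il15, a cytokine of T and NK cells, was lower in double-positive CAF, at -1.11 on 16 UMIs. Tnfsf11, which encodes RANKL, a cytokine of lymph node formation, was at 5.92 CPM in double-negative, 7.27 CPM in eGFP-only, 17.8 CPM in double-positive and 13.9 CPM in tdTomato-only CAF, with log2 ratios of 1.59 and 1.23 in the last 2. Cyp7b1 and Ch25h, the enzymes that make the oxysterol that guides B cells, had log2 ratios of 1.35 and 1.40 in tdTomato-only CAF, and Cyp7b1 had 1.253 in double-positive CAF. Ackr4, a scavenging receptor for CCL19 and CCL21, was lower in all 3 comparisons, with log2 ratios of -1.32, -3.38 and -2.25, the second from 3 UMIs. Grem1 was called higher in double-positive CAF (1.13) on 7 UMIs, with an interval that included 0, and in tdTomato-only CAF (1.08) on 36. Ltbr, the lymphotoxin receptor, was at 29.2 to 35.0 CPM and was called in no comparison.

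11 of 12 listed receptor genes for these products were nearly absent from the fibroblasts. Of the 12 receptor and integrin genes, Itgb1, a common integrin chain, was at 314 CPM over all kept fibroblasts, and the other 11 were at 0.957 CPM or less. Ackr3, a scavenging receptor for CXCL12 that was read with the stromal genes, was on the other hand at 107, 82.3, 55.9 and 69.7 CPM, in 24.2% to 38.4% of cells. Among the 130 immune cells Cxcr5 was found in 2.31%, Ccr7 in 1.54%, Cxcr4 in 9.23%, Il7r in 14.6% and Itga4 in 33.1%. In the comparisons 9, 3 and 7 of the 12 passed the limit, 1, 0 and 1 were higher (Tnfrsf13b on 18 UMIs and Il7r on 28, each with a log2 ratio of 1.44) and 0 were lower, beside 2.27%, 3.74% and 4.24% of all genes higher.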

How the data were processed

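CAF from B16-F1-OVA tumors were sequenced as 4 single-cell 3′ libraries (10x v3.1), and the deposited files hold UMI counts per gene and cell. The authors made these counts with Cell Ranger. The submitters' processing notes name version 10.0.0, STAR (version not given in the sources used here), Seurat 5.0 and GRCm39, whereas the file headers name Cell Ranger 8.0.0. No normalization had been applied to the counts.

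Groups were taken from the sample titles. Counts were summed over kept cells and scaled to 1000000 UMIs (CPM), with exact Poisson 95% intervals; shares had exact Clopper-Pearson intervals and log2 ratios conditional exact binomial ones. UMIs of 1 gene gather in few cells, so these intervals are too narrow for cells or animals. Thinned shares were the exact expectation at 1000 UMIs, and 262, 108, 11 and 34 shallower cells were left out of them. Likeness used log(1 + UMIs per 10000) over 8526 genes found in at least 5% of cells of every library. The members and lists were chosen with earlier results of these data known. Named genes were every member, the 3 genes most like each and the listed stromal and receptor genes, of which those past 2-fold, with Ltbr and the abundant or immune-cell receptors, are given with values. Those last were chosen after their values were seen. Immune cells passed the gene and mitochondrial limits, had Ptprc UMIs and fewer than 3 collagen UMIs.

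Doublets were not called. An alternative left out the number of doublets expected, 1104, 334, 8 and 225 cells at 0.8% per 1000 barcodes. These cells were chosen by depth, and none was identified as a doublet. Other alternatives were other limits on mitochondrial and collagen UMIs, sex marks and 5 depth bins. At least 2 UMIs for detection, other count limits and the mean over cells were also used. Sequences came from RefSeq (GRCm38.p6) and GENCODE M21, not the files' build, and were joined by gene name only. Tools were pandas 2.3.3, scipy 1.17.1, matplotlib 3.10.9 and numpy 2.4.6, under Python 3.11.15. The scripts were tested on simulated data.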

Additional observations from a re-analysis of the deposited data

Results flagged for a closer look

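A feature outside the 10 genes carried a clear signal. Ccl19-ps2, annotated as a copy of Ccl19, held 3711 UMIs in tdTomato-neg eGFP-neg, 453 in tdTomato-neg eGFP+, 170 in tdTomato+ eGFP+ and 1543 in tdTomato+ eGFP-neg CAF, above the 3 UMIs that a count of 0 allows. How reads were divided between it and Ccl19 was not tested.

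Some ratios against the double-negative library lay on opposite sides of 0 in Xist-only and in Y-only cells, with intervals clear of 0 in both. The differences between the marks were not tested. For Cxcl13 in eGFP-only CAF the log2 ratio was -0.28 in Xist-only and 0.44 in Y-only cells. For Cxcl12 it was -0.41 and 0.63 in double-positive and -0.34 and 1.246 in tdTomato-only CAF. For Vcam1 in double-positive CAF it was 0.23 and -0.11.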

How the results depend on the processing

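No paired analysis was possible because each group has 1 library, and for the same reason no library could be left out. The 2 values that reversed were those of Cxcl13 in the middle over the low range without Dcn, at 0.47 (log2) in double-negative and 0.072 in double-positive CAF; this alternative, the one without Lyve1 cells and those on the Ccl19 copy and on immune cells of any collagen level were chosen after seeing the data. Under the alternatives 270 CPM values stayed within their counting intervals and 90 did not, 192 log2 ratios did and 87 did not, and 1055 co-detection ratios did and 101 did not. Shares of cells were the least stable, since 9 stayed and 71 did not, both with thinning and with at least 2 UMIs required, which lower shares by construction. Shares of immune cells stayed in 23 cases and not in 17, and log2 ratios between ranges stayed in 14 and moved in 17. For the values that moved the cause was not tested, except where named. Genes lower numbered 713, 1177 and 540 in Y-only cells in the eGFP-only, double-positive and tdTomato-only comparisons (1321, 1940 and 1257 in the main counts), and 4321, 7196 and 4222 at a limit of 1 UMI, where genes higher numbered 2258, 1902 and 2481 (396, 615 and 735). By the mean over cells 797 and 938 genes were higher in eGFP-only and double-positive CAF. Members lower numbered 2 in tdTomato-only CAF by the mean over cells and with the expected doublet number left out by depth. They numbered 3 there in Xist-only cells and 1 in double-positive CAF in Y-only cells. Without Lyve1 cells they numbered 1 and 0 in double-positive and tdTomato-only CAF, since Ccl21a then drops out. Members higher numbered 2 in tdTomato-only CAF in Y-only cells and 2 in double-positive CAF at 1 UMI.

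Pairs above, without depth bins, numbered 10, 7, 4 and 4 in the 4 libraries. With 5 bins within ranges they numbered 3 and 2 in the double-negative and eGFP-only libraries. At 2 UMIs they numbered 8 and 1 in the double-negative and double-positive libraries. In tdTomato-only CAF they numbered 4 with the expected doublet number left out by depth. In Xist-only cells they numbered 2 in eGFP-only CAF, and in Y-only cells 3 in double-negative CAF. Pairs below numbered 0 in the double-negative, eGFP-only and double-positive libraries without bins and with 5 bins within ranges. In eGFP-only CAF they numbered 0 with 5 bins, with 1 or 10 collagen UMIs and in Xist-only cells, and in double-positive CAF 0 with 5% mitochondrial UMIs and in Xist-only cells. With the expected doublet number left out by depth, pairs below numbered 2 in double-negative and 2 in eGFP-only CAF. They also numbered 2 in double-negative CAF with 10 collagen UMIs, without cells of both marks and in Y-only cells. In Y-only cells they numbered 2 in double-positive CAF. At 2 UMIs they numbered 3, 2 and 2 in double-negative, eGFP-only and tdTomato-only CAF. The 853 double-positive cells limit what could be read there.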
